A study of Homo sapiens with 6 samples.

Results

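The genes described here belong to the interferon response and to the MHC class I pathway of antigen presentation. A list of 38 gene symbols defined them, and 33 of the 38 had a row in the deposited table of 14821 genes. The other 5 (IFI44L, IFIT1, MX1, OAS2 and GBP1) were not analysed here. IFIT2 and XAF1 had too few counts for the test, which left 31 members among 14203 tested genes. RNA came from F36P, an established human erythroleukaemia cell line, in 6 libraries. In 3 of them the cells had been transduced with the retroviral plasmid MSCV-PIG-AM-ERG, which expresses ERG, an ETS family transcription factor. The other 3 carried the empty plasmid MSCV-PIG (vector, genotype WT in the labels). Both groups had been through 4 days of selection in 1 µg/ml puromycin, and the labels mention no interferon treatment. The labels call the samples biological replicates without naming separate cultures or transductions, so each p-value reflects only how these samples vary, which may be technical.

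Interferons are secreted proteins that bind receptors on the cell surface and act through JAK kinases. With type I interferon the kinases phosphorylate STAT proteins, which join IRF9 and bind a promoter element called ISRE, and with interferon gamma STAT dimers bind an element called GAS. The target genes include antiviral effectors, the IRF factors themselves and the machinery of class I presentation. In that pathway the proteasome cuts proteins into peptides, the TAP transporter carries these into the endoplasmic reticulum, and tapasin helps load them onto a class I heavy chain paired with beta-2-microglobulin. Most cells keep a low tonic level of these genes without infection. The submitters asked how ERG holds back erythroid differentiation, and the comparison here gives the state of the interferon and class I genes in the same cells.

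Libraries held 10257141 to 14803031 counts. Levels are given in CPM, counts scaled to a common library size after TMM, a correction for library composition. ERG itself was at 97.4 to 104 CPM with its virus and at 14.6 to 28.1 CPM with vector (log2 fold change 2.23, SE 0.23, edgeR adjusted p = 0.011). All 10 erythroid markers checked had counts, with sums of 3615 to 6655 CPM in the ERG and 10882 to 18755 CPM in the vector libraries. A row was found for 4 of 8 markers of T and NK cells, 1 of 7 of B cells, 2 of 7 of monocytes, 2 of 8 of dendritic cells and 1 of 6 of fibroblasts. The monocyte sum was 65.8 to 88.8 CPM with ERG and 93.0 to 201 CPM with vector, and the other sums stayed between 2.04 and 41.0 CPM. The part of these markers in the results below was not tested. In bulk RNA, fewer cells of a type and less RNA per cell cannot be told apart. ERG replicates 1 and 2 and vector replicate 1 resembled each other (library set A), as did ERG replicate 3 and vector replicates 2 and 3 (library set B). This division cuts across both groups and was drawn from the same data. ERG replicates 1 and 2 were also far closer to each other than any other pair, with a chi-square of 2.20 per degree of freedom against 21.6 to 86.9. Values within each set, and from a model that holds the set as a second factor (the set term), therefore stand beside the results.

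The promoter windows of 4 members are shown because they include the 3 antiviral effectors that stood furthest apart between the groups, IFI44, IFI27 and BST2, and the most abundant member, B2M. They run 5′ to 3′ on the gene's strand, from 250 bases before the RefSeq start site to 50 bases after it. Capitals mark the ISRE letters, GAAA, then any 2 bases, then GAAA, on either strand. On GRCh38.p14 the windows are chr1:78649539-78649838 (plus strand) for IFI44, chr14:94110486-94110785 (plus) for IFI27, chr19:17405581-17405880 (minus) for BST2 and chr15:44711267-44711566 (plus) for B2M.
IFI44: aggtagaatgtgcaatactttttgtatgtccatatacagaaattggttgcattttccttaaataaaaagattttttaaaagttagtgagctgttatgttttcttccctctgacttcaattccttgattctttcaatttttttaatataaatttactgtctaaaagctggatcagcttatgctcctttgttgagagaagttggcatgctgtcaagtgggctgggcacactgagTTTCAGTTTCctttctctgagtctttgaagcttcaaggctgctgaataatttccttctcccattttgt
IFI27: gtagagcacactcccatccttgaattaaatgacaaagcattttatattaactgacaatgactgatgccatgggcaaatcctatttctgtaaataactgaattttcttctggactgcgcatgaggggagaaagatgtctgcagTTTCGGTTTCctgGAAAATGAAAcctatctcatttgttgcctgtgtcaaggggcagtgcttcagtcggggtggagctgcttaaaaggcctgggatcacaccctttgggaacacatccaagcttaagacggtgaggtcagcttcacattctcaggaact
BST2: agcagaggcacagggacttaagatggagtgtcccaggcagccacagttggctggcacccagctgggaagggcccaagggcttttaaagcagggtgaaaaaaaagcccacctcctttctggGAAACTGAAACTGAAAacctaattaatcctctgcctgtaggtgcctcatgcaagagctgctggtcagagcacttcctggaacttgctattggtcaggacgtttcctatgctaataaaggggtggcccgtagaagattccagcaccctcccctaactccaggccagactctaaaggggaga
B2M: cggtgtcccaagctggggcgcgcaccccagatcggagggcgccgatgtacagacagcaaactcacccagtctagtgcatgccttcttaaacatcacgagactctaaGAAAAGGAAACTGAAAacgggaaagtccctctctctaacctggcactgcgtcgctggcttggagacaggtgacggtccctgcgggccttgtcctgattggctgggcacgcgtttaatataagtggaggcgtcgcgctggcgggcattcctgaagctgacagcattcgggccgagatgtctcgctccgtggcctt

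RefSeq windows were found for 29 of the 38 members. ISRE letters occurred in 19 of the 29 (65.5%), against 4.38% of 27305 genes with a window. By role, 13 of 17 antiviral effectors, 3 of 3 peptide transport genes, 2 of 3 immunoproteasome genes and 1 of 3 class I chain genes held them, and 0 of 3 transcription factor genes did. The IFI27 window holds the letters on both strands, starting 108 and 95 bases before the start site, and BST2 and B2M each hold a pair of overlapping matches. GAS letters (TTCNNNGAA, both strands) were in 10 of 29 members against 9.38% of genes. The ETS letters CCGGAAGT were in 0 of 29 members against 4.95% of genes, and the ETS-IRF letters (GGAA, any 2 bases, GAAA) in 6 of 29 against 3.47%. All of these were searched on both strands, and ISRE and ETS-IRF matches can overlap each other. A match describes letters in a window and is no measure of binding.

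**Figure D1:**
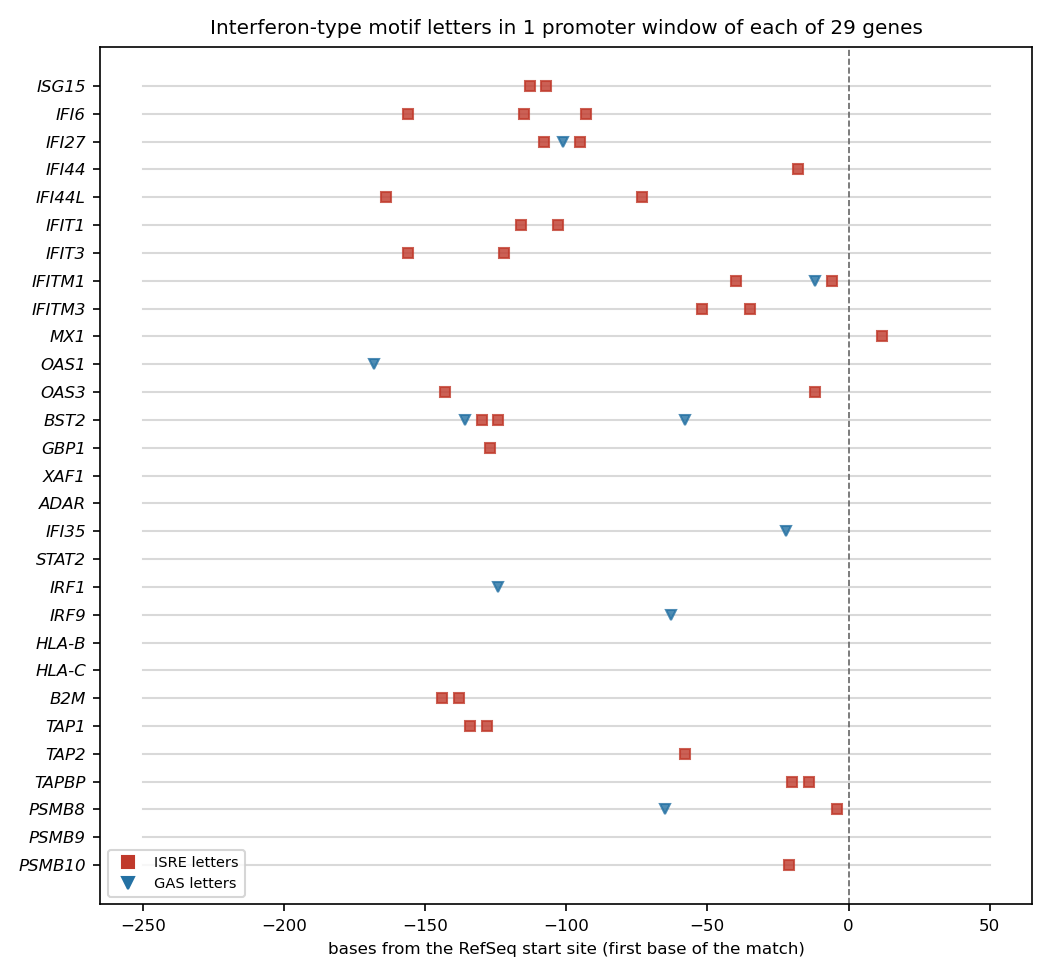
Position of ISRE letters (squares) and GAS letters (triangles) in 1 promoter window of each of 29 genes, in bases from the RefSeq start site, each drawn at the first base of the match; where a gene has several windows, the one with most ISRE matches is drawn. Most ISRE matches lie before the start site, and 19 of the 29 genes hold at least 1.

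Across the 31 tested members, ERG against vector gave no gene past an edgeR adjusted p of 0.05, and apart from HLA-E and PSMB9 the class I genes stood at nearly the same mean level in both groups. Among all genes 2.2% passed, 1.47% as higher and 0.732% as lower. DESeq2 called 2 members (6.45%, against 7.08% of all genes), IFI44 as higher (4.2% of all genes) and IFI27 as lower (2.89%), and limma on log2(CPM + 1) called 0. At an unadjusted p under 0.05 there were 5 members (16.1%), near the 15.9% of all genes. The 18 positive and 13 negative log2 fold changes had a median of 0.06, against -0.01 over all genes, and a median size of 0.18 against 0.25. Of the members, 16 (51.6%) had a log2 fold change under 0.2 in size, against 41.0% of all genes. The 95% intervals had a median half-width of 0.65 over the members and 0.53 over all genes, so smaller differences were within the error for the typical member. With the set term 6 members passed (19.4%, against 13.2% of all genes): IFI44, IFITM2 and HLA-E as higher (7.2% of all genes) and IFI27, BST2 and IRF1 as lower (5.96%). With ERG replicates 1 and 2 also summed to 1 sample, 3 of them passed (9.68%, against 7.05% of all genes), IFI44 and HLA-E as higher (4.04% of all genes) and IFI27 as lower (3.01%). The sets were drawn from these libraries, so p-values with the set term may be too low.

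**Figure D2:**
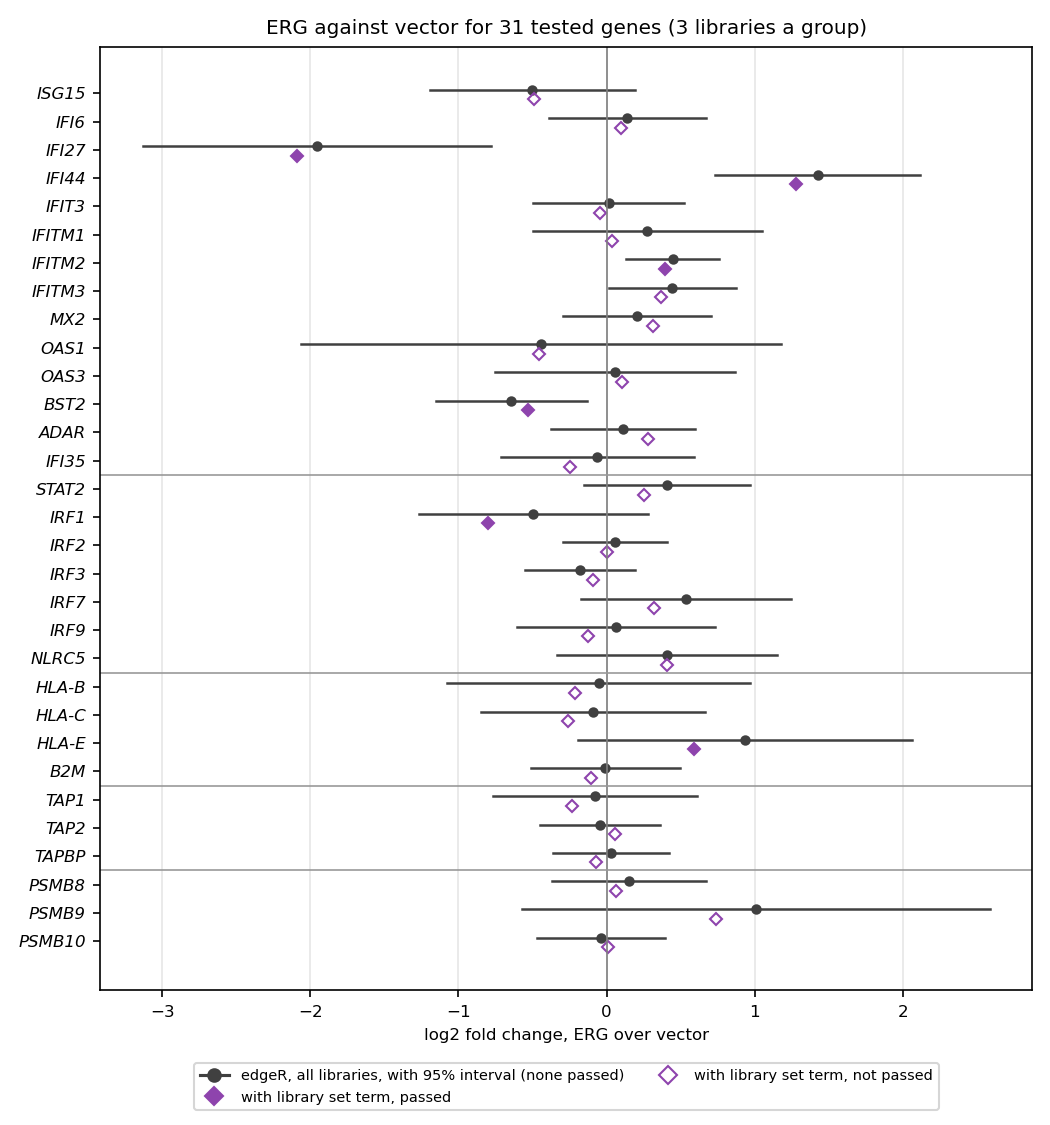
Log2 fold change of ERG over vector for the 31 tested members, grouped by role; circles with bars are the edgeR estimates with 95% intervals, diamonds the estimates with the library set term, filled where the adjusted p was under 0.05. IFI27 at -1.95 and IFI44 at 1.43 stand furthest from 0, and the class I chains other than HLA-E and the peptide transport genes lie near 0.

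Among the antiviral effectors, 16 of 21 had a row and 14 were tested. IFI44, an interferon-induced cytoplasmic protein (chromosome 1, 78649796 to 78664078, hg38, GENCODE release 29), was at 7.98, 10.1 and 6.38 CPM in ERG replicates 1 to 3 and at 3.52, 2.28 and 3.33 CPM in the vector replicates. Every ERG library was above every vector library, and the means were 8.17 ± 1.89 and 3.04 ± 0.66 CPM (SD, n = 3 each). The log2 fold change of 1.43 (2.69-fold, SE 0.30) had an edgeR adjusted p of 0.0612, just short of the threshold. Within set A the log2 difference was 1.31 and within set B 1.15, so the size was similar in both. IFI44 passed under the set term (log2 1.28, edgeR adjusted p = 0.0104), in DESeq2 (adjusted p = 0.0013) and without ERG replicate 3 (edgeR adjusted p = 0.0499). With ERG replicates 1 and 2 summed and no set term it did not pass (log2 1.35, edgeR adjusted p = 0.254), and neither did any other gene. Nor did it pass without vector replicate 2 or 3 (edgeR adjusted p = 0.192 and 0.152).

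IFI27 encodes a small mitochondrial membrane protein and is a widely used marker of interferon exposure (chromosome 14, 94104836 to 94116698). It was at 1.25, 1.58 and 1.56 CPM with ERG and at 10.2, 3.88 and 3.03 CPM with vector, so the groups did not overlap and vector replicate 1 stood far above the other vector libraries. The log2 fold change was -1.95 (SE 0.50, 3.88-fold lower with ERG), with a 95% interval of -3.13 to -0.78 and an edgeR adjusted p of 0.107. Without vector replicate 1 the value was -1.24, while the sets gave -2.74 (A) and -1.09 (B). IFI27 passed in DESeq2 (adjusted p = 0.0073) and under the set term (log2 -2.09, edgeR adjusted p = 0.00702). The ERG libraries held 16, 23 and 23 counts of it, which limits the precision.

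BST2, called tetherin, holds budding enveloped viruses at the cell surface (chromosome 19, 17402939 to 17405648). Its level was 135, 131 and 220 CPM with ERG and 232, 260 and 267 CPM with vector. All ERG libraries were lower, but ERG replicate 3 came close to the vector range. The log2 fold change of -0.64 (SE 0.22) had an edgeR adjusted p of 0.207, and it was -0.92 without ERG replicate 3 (adjusted p = 0.0275). Over the fits that left out 1 library it ranged from -0.92 to -0.51. The sets gave -0.80 (A) and -0.26 (B), and under the set term BST2 passed as lower (log2 -0.53, edgeR adjusted p = 0.0168), which it did not with ERG replicates 1 and 2 summed (adjusted p = 0.0723).

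The IFITM proteins block the fusion of viruses with cell membranes, and their genes lie side by side on chromosome 11. IFITM3 was at 227, 229 and 221 CPM with ERG and 211, 137 and 149 CPM with vector, and IFITM2 at 114, 114 and 106 against 90.8, 83.9 and 70.9 CPM. In both genes each ERG library was above each vector library, by a small margin for IFITM3. Their log2 fold changes of 0.44 (SE 0.18) and 0.45 (SE 0.13) had edgeR adjusted p-values of 0.295 and 0.159. IFITM2 passed with the set term (adjusted p = 0.026) and IFITM3 only without vector replicate 1 (log2 0.66, adjusted p = 0.0443). IFITM1 followed the library sets instead, at 102, 96.3 and 101 CPM in set A and 61.2, 71.8 and 41.2 CPM in set B. The genes are close in sequence and IFITM1 and IFITM2 share exon bases in GENCODE, so the split of reads among them is uncertain.

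The remaining effectors had groups that overlapped. ISG15, the ubiquitin-like modifier, was low at 3.72 ± 0.55 CPM with ERG and 5.26 ± 1.35 CPM with vector (log2 -0.50, 95% interval -1.19 to 0.19). ADAR, the RNA-editing enzyme, was the most highly expressed of them at 194 ± 11.0 against 180 ± 48.6 CPM. MX2, a GTPase that acts on retroviral capsids, was at 21.7 ± 0.58 against 18.8 ± 5.12 CPM. OAS3, a synthetase that activates RNase L, was at 21.97 ± 5.07 against 21.15 ± 9.21 CPM, while OAS1 had only 3 to 21 counts a library. IFI6 (12.7 ± 0.92 against 11.6 ± 2.89 CPM), IFIT3 (6.09 ± 0.57 against 6.02 ± 0.42 CPM) and IFI35 (15.62 ± 3.325 against 16.3 ± 5.49 CPM) had similar means in both groups. The 95% interval of IFIT3 was -0.50 to 0.52. IFIT2, a relative of IFIT3 in the IFIT family, had 20, 15 and 6 counts with ERG and 6, 5 and 0 with vector, and without the filter its log2 fold change was 1.64 (edgeR adjusted p = 0.404). IFIT2 shares exon bases with LIPA on the other strand, which had 1728 counts over all libraries against 52. Some IFIT2 reads may therefore belong to LIPA. XAF1, a cell death gene, had 20, 12 and 9 against 7, 25 and 2 counts, with no common direction.

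**Figure D3:**
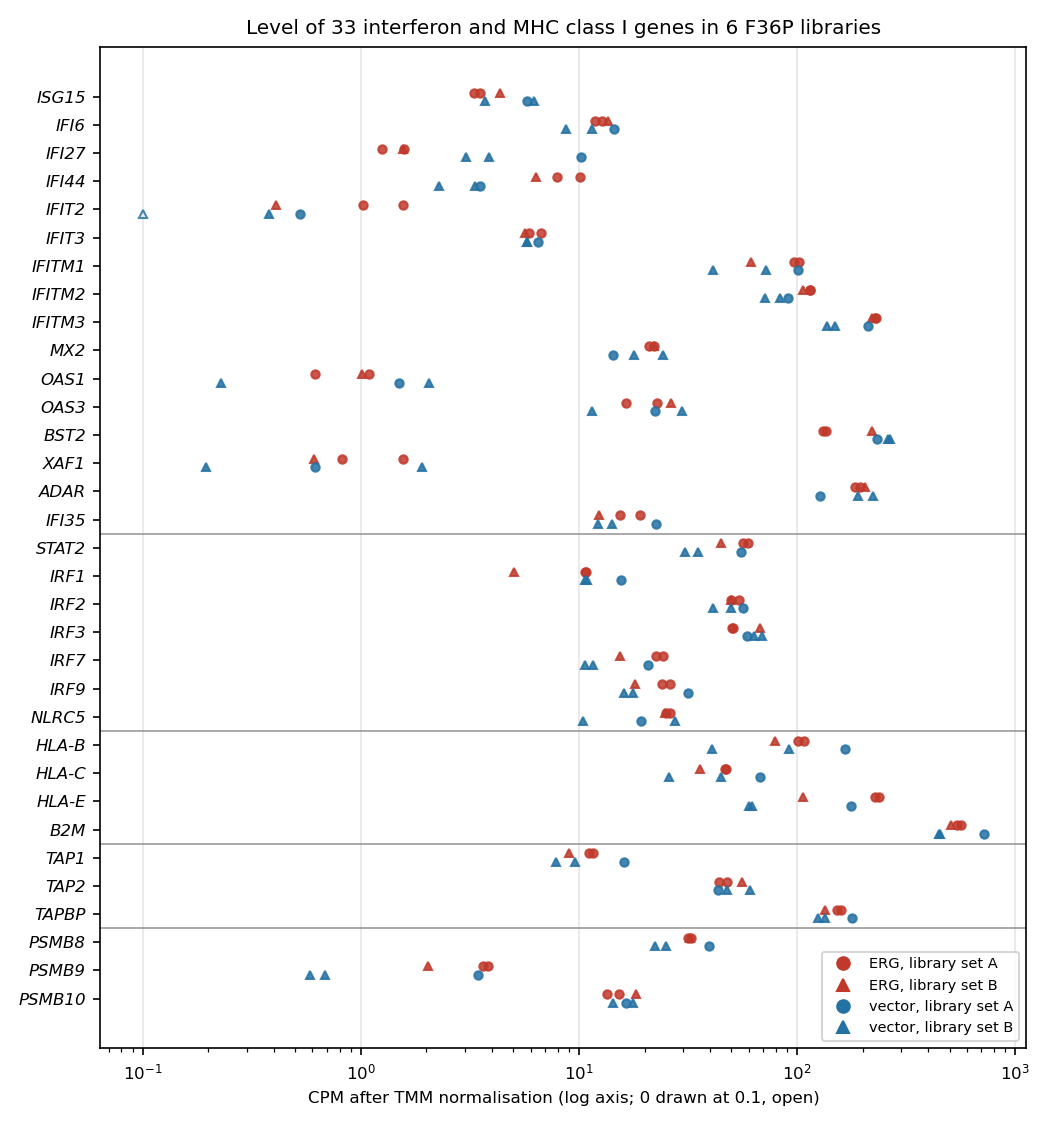
CPM of the 33 members with a row (log axis) in each library, grouped by role; red is ERG and blue vector, circles are library set A and triangles set B. Red lies right of blue for IFI44, IFITM2 and IFITM3 and left of it for IFI27 and BST2, while for HLA-E, PSMB9 and IRF7 circles lie right of triangles.

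All 7 transcription factors were tested and 0 passed without the set term. IRF1, an activator of class I and immunoproteasome genes (chromosome 5, 132481609 to 132490798), was at 10.6, 10.8 and 5.02 CPM with ERG and 15.7, 10.7 and 10.9 CPM with vector. ERG replicate 3 was the lowest library and vector replicate 1 the highest, and the other 4 were almost equal. The log2 fold change was -0.49 (95% interval -1.27 to 0.28, edgeR adjusted p = 0.513). It was -0.21 without ERG replicate 3, -0.55 within set A and -1.08 within set B, and IRF1 passed under the set term (log2 -0.80, edgeR adjusted p = 0.0221) but not with ERG replicates 1 and 2 summed as well (adjusted p = 0.0643).

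IRF7, the factor that amplifies type I interferon genes, was at 24.4, 22.5 and 15.4 CPM with ERG and 20.7, 10.7 and 11.6 CPM with vector (log2 0.53, SE 0.30, edgeR adjusted p = 0.443). Its 3 libraries of set A were above the 3 of set B. STAT2 and IRF9, the partners in the ISRE-binding complex, showed the same order of sets. STAT2 had means of 53.8 ± 7.82 and 40.5 ± 13.2 CPM and IRF9 of 22.8 ± 4.22 and 21.8 ± 8.47 CPM in ERG and vector. NLRC5, the activator of class I genes, was at 26.2, 25.0 and 24.8 CPM with ERG, and at 19.3, 10.4 and 27.6 CPM with vector. Its ERG libraries were almost equal and its vector libraries spread widely around them (log2 0.41, 95% interval -0.33 to 1.15). IRF2, an antagonist of IRF1, was at 51.3 ± 2.34 against 49.2 ± 7.87 CPM. IRF3, the latent factor that switches on interferon genes after sensing of nucleic acids, was at 56.3 ± 10.1 against 63.8 ± 5.13 CPM. IRF3 shares exon bases with BCL2L12 on the other strand, and the sources used here do not say whether counting used strand, so their reads cannot be told apart.

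In class I presentation, HLA-E differed most among the chain genes. HLA-E is a conserved class I molecule that is read by receptors of NK cells (chromosome 6, 30489467 to 30494205). It was at 238, 227 and 106 CPM with ERG and 176, 61.9 and 60.5 CPM with vector. Within each set every ERG library was above every vector library, yet vector replicate 1 was above ERG replicate 3. The log2 fold change of 0.93 (1.91-fold, 95% interval -0.19 to 2.06) had an edgeR adjusted p of 0.4. The sets gave log2 differences of 0.40 (A) and 0.79 (B), and HLA-E passed under the set term (log2 0.59, SE 0.10, edgeR adjusted p = 0.00546), also with ERG replicates 1 and 2 summed (adjusted p = 0.0166). On leaving out 1 library the log2 fold change ranged from 0.68 to 1.64, with the highest value without vector replicate 1.

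B2M encodes beta-2-microglobulin, the light chain of every class I molecule (chromosome 15, 44711487 to 44718877). It was at 564, 540 and 507 CPM with ERG and 722, 451 and 448 CPM with vector. The ERG libraries lay inside the vector range, and the log2 fold change was -0.01 (95% interval -0.51 to 0.49). HLA-B, a classical heavy chain, was at 101, 107 and 78.8 CPM with ERG and 166, 40.7 and 91.7 CPM with vector. Its vector libraries enclosed all ERG libraries, with vector replicate 1 highest and vector replicate 2 lowest, and the log2 fold change of -0.05 had a 95% interval of -1.07 to 0.97. HLA-C had the same order of vector libraries, at 68.0, 26.0 and 44.6 CPM in the vector libraries and 47.3, 46.8 and 35.8 CPM with ERG. The heavy chain genes are near copies of each other and differ between people, HLA-B and HLA-C share exon bases in GENCODE, and the split of their reads is uncertain.

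The peptide transport genes lay close together in the groups. TAP1, a subunit of the transporter, was at 10.6 ± 1.37 against 11.2 ± 4.36 CPM, and TAP2, its partner, at 49.2 ± 6.22 against 50.8 ± 9.17 CPM. TAPBP, which encodes tapasin, was at 149 ± 12.9 against 145 ± 28.2 CPM. Their 3 log2 fold changes lay between -0.08 and 0.03, and the 95% interval of TAPBP was -0.36 to 0.42. Of the immunoproteasome subunits, which replace the standard catalytic subunits, PSMB8 was at 32.1 ± 0.62 against 28.97 ± 9.16 CPM and PSMB10 at 15.7 ± 2.44 against 16.1 ± 1.67 CPM. PSMB9 was low, at 3.83, 3.63 and 2.04 CPM with ERG and 3.43, 0.685 and 0.587 CPM with vector. In PSMB9 vector replicate 1 sided with the ERG libraries, and the other 2 vector libraries had 9 and 6 counts. Its log2 fold change of 1.01 had a 95% interval of -0.57 to 2.59. On leaving out 1 library it ranged from 0.63 to 2.29, with the highest value without vector replicate 1. PSMB8 and PSMB9 share exon bases on opposite strands, so some reads of either may belong to the other.

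Between genes, levels were compared per kilobase of transcript. In vector libraries B2M stood first at 499.7 ± 145 CPM per kilobase, followed by BST2 at 249 ± 18.0, IFITM3 at 205 ± 49.3, IFITM2 at 106 ± 13.0 and IFITM1 at 84.5 ± 35.4. B2M was above BST2 by more than their spread, whereas BST2 and IFITM3 differed by less than the SD of IFITM3. TAPBP (77.0 ± 14.95) and HLA-B (64.3 ± 40.7) came next and did not stand apart beyond their spread. IFIT3 (2.43 ± 0.17), PSMB9 (2.01 ± 2.07) and IFI44 (1.80 ± 0.39) were near the bottom, above OAS1 (0.75 ± 0.56), XAF1 (0.25 ± 0.25) and IFIT2 (0.08 ± 0.08).

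The library sets separated more members than ERG and vector did. All 3 libraries of one set lay beyond the other set in 16 of 31 members (51.6%), against 43.0% of all genes. In 14 of 31 members (45.2%) all 3 libraries of set A were above all 3 of set B, against 20.4% of all genes, and in 2 members (IRF3 and TAP2) all were below, against 22.6%. These 14 were IFIT3, IFITM1, IFI35, STAT2, IRF2, IRF7, IRF9, HLA-B, HLA-C, HLA-E, B2M, TAP1, TAPBP and PSMB9. For ERG against vector, the libraries did not overlap in 5 of 31 members (16.1%, against 21.9% of all genes), with 3 members above (12.3% of all genes) and 2 below (9.54%). The sets were drawn from the same data, so these counts are a description with no test. For the class I chains the median difference of set A over set B was 1.22 on the log2 scale among vector libraries and 0.40 among ERG libraries, against 0.02 and 0.00 over all genes. As a mean over the 4 chain genes, in log2 units from the mean of the 6 libraries, vector replicate 1 was at 0.62 and vector replicates 2 and 3 at -0.78 and -0.30. ERG replicates 1, 2 and 3 were at 0.33, 0.32 and -0.19, between those extremes. The labels do not say what separates the sets.

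**Figure D4:**
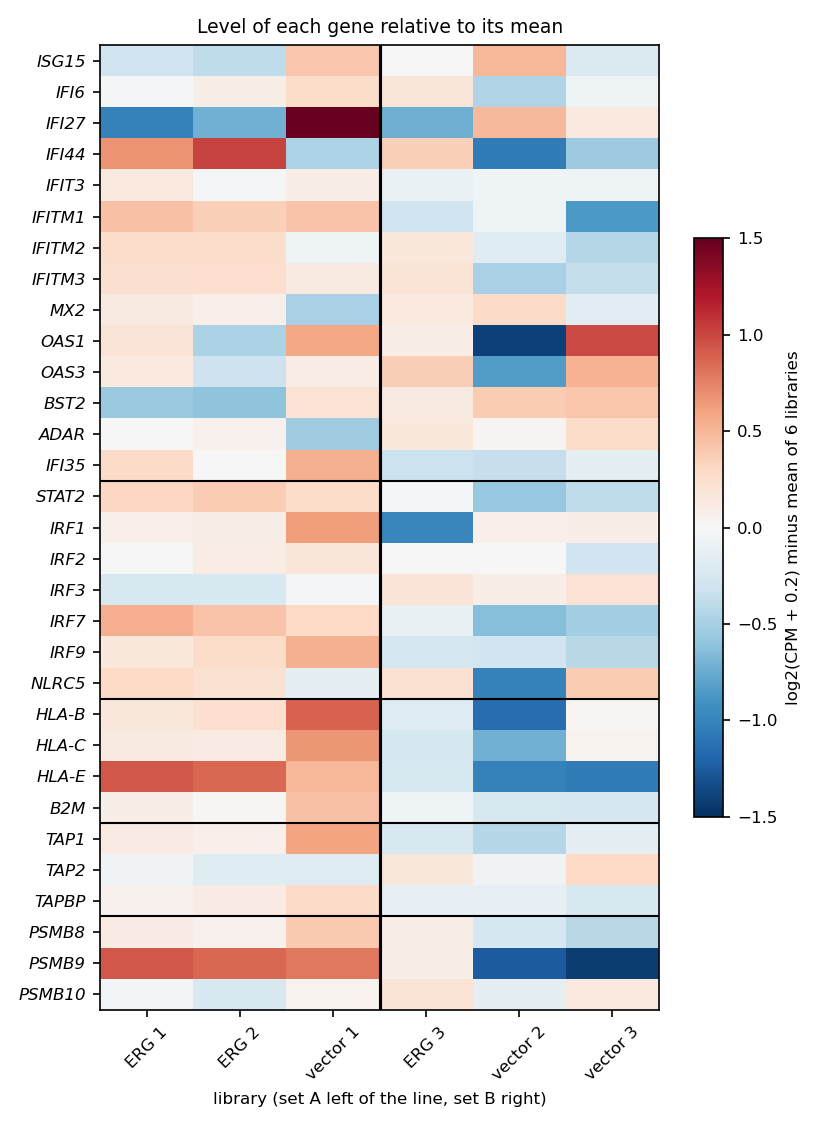
Heat map of log2(CPM + 0.2) minus the mean of the 6 libraries for 31 members (colour limits at 1.5 either way), with library set A left of the vertical line and set B right of it. HLA-B, HLA-E, B2M, TAP1 and PSMB9 are redder on the left, while IFI44 is red in the ERG libraries of both sets and IFI27 is blue in them.

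Within the sets, the sign of the ERG difference was shared by 16 of 31 members (51.6%), against 66.9% of all genes. In 14 members (45.2%, against 17.8% of all genes) ERG was below vector in set A and above it in set B, and 1 member, ADAR, had the opposite order (15.3% of all genes). The 14 included HLA-B (-0.67 and 0.37), HLA-C (-0.53 and 0.07), B2M (-0.39 and 0.17), TAP1 (-0.50 and 0.05) and PSMB8 (-0.30 and 0.44), in differences of log2 CPM. Set A has 1 vector library and set B 1 ERG library, so single libraries decide these signs, and whether the sets responded differently was not tested. Vector replicate 1 is the library with the highest level of HLA-B, HLA-C, B2M, TAP1, TAPBP and PSMB8.

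**Figure D5:**
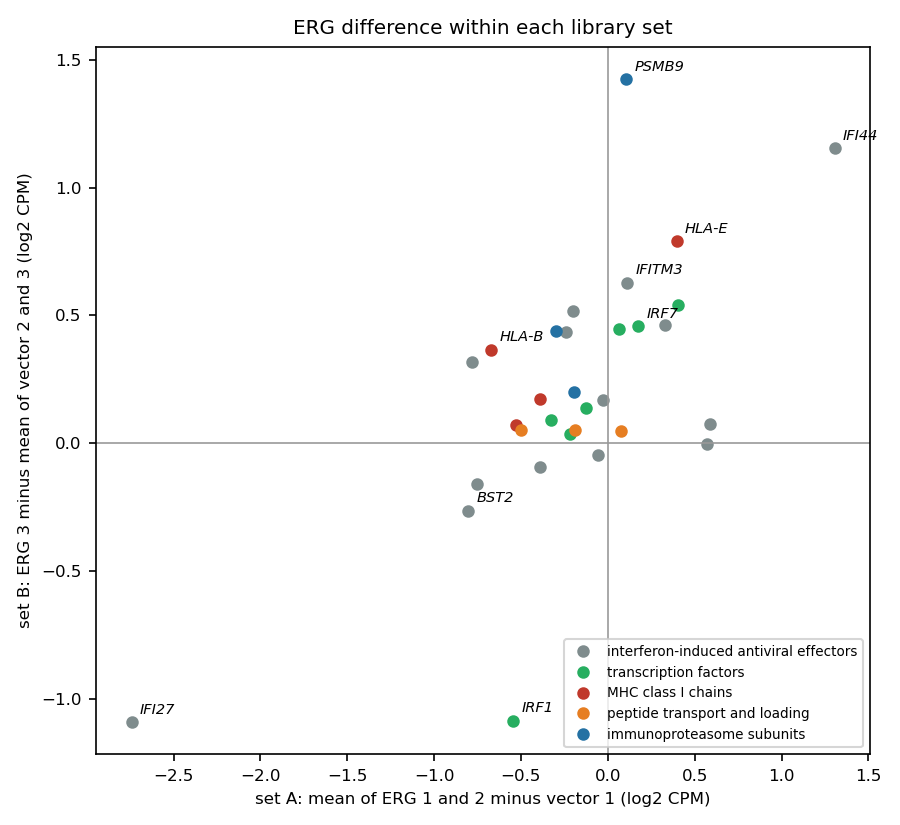
Difference of log2 CPM between ERG and vector within set A (horizontal) and within set B (vertical) for 31 members, coloured by role. IFI44 lies far out at the upper right and IFI27 at the lower left, and 14 members, among them HLA-B, lie at the upper left with opposite signs.

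The rest of the pathway was read from 10 further lists with 167 genes, of which 125 were tested and 1 passed without the set term (0.8%, against 2.2% of all genes). Under the set term 25 of the 125 passed (against 13.2% of all genes), and 13 (10.4%, against 7.05%) with ERG replicates 1 and 2 summed as well. That gene was LGALS3BP, a secreted galectin-binding protein that interferon induces. It was at 19.3, 15.2 and 20.4 CPM with ERG and 76.0, 58.7 and 92.5 CPM with vector, clearly apart. It fell 4.13-fold (log2 -2.05, SE 0.21, edgeR adjusted p = 0.011), with adjusted p-values of 0.0716 and 0.0729 without ERG replicate 1 or 2. Without the set term it was the only call among 41 tested of 50 other interferon-induced genes, whose median log2 fold change was 0.01. Under the set term 4 more passed: the antiviral factor SAMD9 (log2 0.55, edgeR adjusted p = 0.0252) and the ADP-ribosyltransferase PARP12 (0.46, 0.0441) as higher, and the apolipoprotein APOL1 (-0.94, 0.00699) and the aminopeptidase LAP3 (-0.37, 0.0281) as lower. Of these 4, APOL1 also passed with ERG replicates 1 and 2 summed (edgeR adjusted p = 0.0259), and the others did not. The APOL1 groups overlapped, at 45.4, 45.2 and 26.3 CPM with ERG and 116, 39.1 and 33.8 CPM with vector, where replicate 1 stood far above the others. Its log2 fold change was -0.69 without the set term (edgeR adjusted p = 0.522), and the sets gave -1.36 (A) and -0.46 (B). None of 11 interferon genes was analysed here, so the ligands themselves have no value.

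Upstream, 0 of 10 tested receptor and JAK-STAT genes and 0 of 17 nucleic acid sensing genes passed without the set term. JAK1, the kinase of both interferon receptor types, was at 298, 311 and 221 CPM with ERG and 181, 180 and 181 CPM with vector (log2 0.61, edgeR adjusted p = 0.112). Its ERG libraries were all higher, and it passed under the set term (log2 0.52, edgeR adjusted p = 0.0158), but not with ERG replicates 1 and 2 summed (0.0601). JAK2, the kinase of the interferon gamma and erythropoietin receptors, passed as lower under the set term (log2 -0.66, edgeR adjusted p = 0.00214) and with the summed replicates (0.0117). It was at 171, 165 and 117 CPM with ERG and 261, 205 and 170 CPM with vector, so the groups just overlapped. Without the set term its log2 fold change was -0.49 (edgeR adjusted p = 0.321). STAT3 (233 ± 10.6 against 215 ± 6.20 CPM), MAVS, the adaptor of RNA sensors (176 ± 1.77 against 158 ± 22.3 CPM), and TRIM25, a ubiquitin ligase of that route (92.0 ± 6.38 against 126 ± 7.91 CPM), did not pass. TRIM25 was lower in every ERG library and passed under the set term (log2 -0.48, edgeR adjusted p = 0.00962). In the sensing list 4 more genes passed under that term. UNC93B1, a chaperone of Toll-like receptors (log2 -1.12, edgeR adjusted p = 0.00329), the DNA sensor AIM2 (-1.53, 0.0383) and the adaptor TRAF3 (-0.45, 0.00908) were lower, and the DNA sensor IFI16 (1.01, 0.0454) was higher. Without the set term their edgeR adjusted p-values were 0.0544, 0.287, 0.223 and 0.181, in that order. AIM2 was low, at 1.41, 2.67 and 0.679 CPM with ERG and 4.14, 3.35 and 3.42 CPM with vector. For TRAF3 the groups overlapped, at 52.0, 52.4 and 76.6 against 71.0, 108 and 101 CPM. With ERG replicates 1 and 2 summed TRIM25, UNC93B1 and TRAF3 passed, and AIM2 and IFI16 did not. Median log2 fold changes were -0.10 for the receptor list and 0.18 for the sensing list.

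Brakes on signalling (0 of 14), NF-kB genes (0 of 10) and other IRF factors (0 of 6) held no call without the set term. TRIM28, a corepressor, was at 1202 ± 421 against 1380 ± 284 CPM and PTPN11, a phosphatase, at 317 ± 21.5 against 274 ± 53.1 CPM. ICAM1, an adhesion molecule, was at 84.0 ± 35.7 against 67.6 ± 32.4 CPM, and RELA, the NF-kB subunit p65, at 70.5 ± 4.69 against 68.4 ± 6.335 CPM. IRF2BP2, a partner of IRF2, was at 159 ± 7.30 against 207 ± 33.1 CPM, and IRF2BP1 at 82.0 ± 15.5 against 93.0 ± 9.53 CPM. Under the set term CISH, a feedback inhibitor of cytokine receptors, passed as lower (log2 -0.53, edgeR adjusted p = 0.008), as did IRF2BP2 (-0.45, 0.0109), and IRF5 passed as higher (1.44, 0.0343). With ERG replicates 1 and 2 summed CISH passed, and IRF2BP2 and IRF5 did not. The CISH groups overlapped, at 104, 105 and 66.5 CPM with ERG and 171, 84.4 and 84.5 CPM with vector. Without the set term its log2 fold change was -0.31 (edgeR adjusted p = 0.671).

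Other class I and peptide loading genes (0 of 11) and the constitutive proteasome list (0 of 8) also gave no call without the set term. CALR, a chaperone of the loading complex, was at 2115 ± 695 against 2764 ± 274 CPM, and CANX, its membrane-bound relative, at 419 ± 84.4 against 430 ± 63.6 CPM. The proteasome activators PSME4 and PSME3 were at 232 ± 17.4 against 220 ± 42.8 CPM and 158 ± 53.9 against 193 ± 61.4 CPM. The proteasome list had a median log2 fold change of -0.34, and of -0.23 with the set term. Its median difference of set A over set B was -0.41 on the log2 scale among vector libraries and -0.48 among ERG libraries. Over all genes these were 0.02 and 0.00. Under the set term MICB, a ligand of an activating NK cell receptor, passed as higher (log2 0.75, edgeR adjusted p = 0.018). The standard catalytic subunit PSMB5 (-0.44, 0.0175) and the assembly factor POMP (-0.47, 0.0327) passed as lower. None of these 3 passed with ERG replicates 1 and 2 summed (edgeR adjusted p = 0.051, 0.082 and 0.101).

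MHC class II, the pathway that shows peptides to helper T cells, had the largest median of the lists at -0.72 over 11 tested genes, of which 0 passed without the set term. With the set term 6 of the 11 passed as lower, against 5.96% of all genes: CIITA, CD74, HLA-DRA, HLA-DRB1, HLA-DRB5 and HLA-DQB1. With ERG replicates 1 and 2 summed 5 of the 6 passed, and HLA-DRB5 did not (edgeR adjusted p = 0.0979). Some of these rest on few counts. HLA-DQB1 was at 0.469, 0.480 and 0.136 CPM with ERG and 5.02, 1.14 and 1.17 CPM with vector. HLA-DRB5 was at 1.02, 1.10 and 0.543 against 3.34, 0.990 and 2.64 CPM, and its groups overlapped. So did those of CD74, at 46.1, 51.8 and 30.2 CPM with ERG and 101, 48.2 and 61.4 CPM with vector. CIITA, the master activator of class II genes and a relative of NLRC5, was at 9.31, 10.8 and 4.62 CPM with ERG and 30.2, 15.2 and 12.8 CPM with vector. The groups did not overlap, and the sets gave log2 differences of -1.58 (A) and -1.57 (B) (edgeR adjusted p = 0.208, under the set term 2.74e-04). HLA-DRA, the class II alpha chain, was at 10.5, 10.4 and 2.65 CPM against 37.8, 13.0 and 15.2 CPM, also without overlap. HLA-DRB1 and HLA-DRB5 are near copies whose reads cannot be split with certainty. The general class II promoter factors RFX5 (80.9 ± 0.97 against 78.5 ± 4.68 CPM) and RFXANK (88.2 ± 7.27 against 99.8 ± 8.30 CPM) did not pass in either fit. Vector replicate 1 was the highest library for CIITA and HLA-DRA as it was for HLA-B and B2M.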

How the data were processed

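The deposited table holds whole-number read counts per gene for 6 libraries, although its name speaks of CPM. The submitters' processing notes name hg38 as the build and edgeR 3.32.1 as a tool. The aligner, counting tool, annotation and strand use are not given in the sources used here. Every gene's second-highest CPM was at least 1.01, so low genes had been filtered before deposit. The NC columns were taken as the vector samples, the only group besides ERG, and 0 columns were left unused.

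A gene was tested if 3 or more libraries reached 1 CPM, with edgeR 4.0.16 (R 4.3.3; TMM, quasi-likelihood, two-sided). The Benjamini-Hochberg adjustment ran over all 14203 genes, with a threshold of 0.05. On simulated counts the test called 32 of 100 genes changed 2-fold and 97 of 100 changed 4-fold, with 5 false calls. Those counts had a common dispersion and no library sets, unlike these libraries. The SE is the log2 fold change divided by the square root of F. Alternatives used DESeq2 1.42.0, limma 3.58.1, RLE scaling, no filter, a replicate block, the set term, summed ERG replicates and leaving out each library. Within-set differences use a prior count of 2. The per-kilobase length is the median of the gene's GENCODE release 29 basic transcripts tagged APPRIS principal. Members, lists and the naming rule were chosen with earlier results of these data known: every member is named, and from each further list up to 4 genes that passed, or else the 2 with the highest mean CPM. JAK2, HLA-DRA, CIITA and the other context genes given for passing under the set term fall outside that rule and were named after their values were seen.

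Replicate numbers are shared by the groups. Same-numbered libraries had deviations from the group means that correlated at 0.63, -0.29 and 0.58 across genes, which are not independent, so the numbers were not used as pairs.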

Additional observations from a re-analysis of the deposited data

How the results depend on the processing

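Counts of genes past the threshold depended on the fit. Over all genes edgeR called 313; DESeq2 called 1006, the set term 1869, summed ERG replicates 1 and 2 gave 0 (1277 at an unadjusted p under 0.05), and both together, chosen after seeing the data, 1001. Among members the 0 calls became 2 with DESeq2, 6 with the set term and 3 with both changes. In the further lists the single call became 7 with DESeq2, 2 with limma, 25 with the set term, 0 with summed replicates and 13 with both. Leaving out 1 library gave 0 to 441 calls over all genes, 0 to 2 among members (IFI44 and BST2 without ERG replicate 3, IFITM3 without vector replicate 1) and 0 to 3 in the further lists. Without ERG replicate 1 or 2 no gene passed in edgeR, with 1278 and 1256 at an unadjusted p under 0.05. RLE scaling and dropping the filter changed none of the 3 counts by over 1.5 times.

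The labels do not say whether same-numbered libraries form pairs, and the numbers were not used as pairs. With the replicate number as a block, edgeR called 905 genes, 2 members (IFI44 and HLA-E) and 7 genes of the further lists.

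Of 31 members, 15 kept their sign in every fit. With all libraries 8 changed it, all with a log2 fold change of at most 0.09 in size. HLA-B was 0.15 and 0.13 in limma and with the block, B2M 0.027 and 0.028, and HLA-C 0.00083 in limma. With the set term, with summed replicates and with both, IFIT3 was -0.042, -0.014 and -0.044, IRF9 -0.12, -0.0072 and -0.091, TAP2 0.060, 0.0019 and 0.056, TAPBP -0.070, -0.0040 and -0.052, and PSMB10 0.0096, 0.018 and 0.031. On leaving out 1 library 16 changed sign: ADAR ranged from -0.087 to 0.30, B2M from -0.13 to 0.26, HLA-B from -0.43 to 0.54, HLA-C from -0.38 to 0.30, IFI35 from -0.24 to 0.24, IFI6 from -0.028 to 0.34, IFIT3 from -0.063 to 0.073, IRF2 from -0.055 to 0.17, IRF9 from -0.11 to 0.43, OAS1 from -0.96 to 0.10, OAS3 from -0.24 to 0.39, PSMB10 from -0.16 to 0.064, PSMB8 from -0.0020 to 0.44, TAP1 from -0.28 to 0.28, TAP2 from -0.14 to 0.11 and TAPBP from -0.066 to 0.20. The cause of these changes in counts and signs was not tested. Low counts limit IFI27, PSMB9, OAS1, IFIT2 and XAF1. In the further lists they limit HLA-DQB1, HLA-DRB1, HLA-DRB5, AIM2 and IRF5, among others.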
